A study of Mus musculus with 2 samples.

Results

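The genes described are 10 members of the machinery that prepares and runs DNA replication: the helicase subunits Mcm2, Mcm3, Mcm4, Mcm5, Mcm6 and Mcm7, the helicase loaders Cdt1 and Cdc6, the sliding clamp Pcna and the S phase cyclin Ccne2. They were taken by name as 10 of the 33757 features of the count table, and all 10 were measured and passed the filter on low counts. The cells were NIH3T3-Rev-VNP1-H2B-iRFP, a mouse fibroblast line carrying a Venus reporter named for the clock repressor Nr1d1 and a near-infrared tag, iRFP, on histone H2B. They were cultured to near confluence without synchronization, and all groups shared both reporters and the same culture conditions. Single cells were sorted by fluorescence and profiled with FLASH-seq, which sequences RNA of single cells along the whole transcript.

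The 768 wells lay on 2 plates. The labels describe 2 H2B-iRFP bins for each plate, whereas in the deposited sorting record plate 1 held only the sort with high H2B-iRFP fluorescence and plate 2 only the sort with low H2B-iRFP fluorescence. Within each plate 4 gates divided the cells by Venus fluorescence, from gate 1, the dimmest, to gate 4, the brightest. A gate filled the same block of 6 well columns on both plates, so gate and plate position cannot be told apart. After filtering, 762 cells remained with 151173 to 1618022 counts each, and their counts were summed into 8 blocks of 76042157 to 86612194 counts. The 8 fibroblast markers summed to between 22206 and 28341 counts per 1000000 counts (CPM) in every block, while the 4 epithelial markers reached at most 7.74 CPM and the endothelial markers Pecam1 and Cdh5 together at most 0.707 CPM; the listed marker Kdr was not analysed here. Of 3 immune markers, the pan-leukocyte gene Ptprc stayed at or below 0.0126 CPM and Lyz2 reached 12.5 CPM. Nothing in the labels says that the plates came from separate cultures, so p-values measure only the spread between these blocks, which may be technical.

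As background, the MCM2-7 proteins form the ring-shaped helicase that is loaded on origins of replication in G1 by the origin recognition complex with CDC6 and CDT1, a step called licensing. Cyclin E with its kinase then helps to start S phase, and the PCNA ring tethers the polymerases to DNA. Transcription of these genes is classically driven by E2F factors when cells commit to divide and is low in resting cells, the state that confluent fibroblasts tend to enter. Work in other systems has linked the circadian clock and the cell cycle.

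The promoters are shown because the members moved together across the gates. RefSeq windows from 250 bases before to 50 bases after a start site (GRCm38.p6, a different build from that of the counts) were at hand for 8 of the 10 genes, and Mcm4 and Ccne2 had no entry. E2F-type letters (TTCCCGC or TTCGCGC or TTGCCGC or TTGGCGC on either strand, with overlapping matches counted) were found for 6 of the 8 genes, namely Mcm3, Mcm5, Mcm6, Mcm7, Cdt1 and Cdc6. Of 27025 genes in the table, 10.9% held such a match. Capitals mark these letters in the lines that follow, each written 5′ to 3′ along the gene. Mcm6 held 5 matches, Mcm3 and Mcm5 held 3 each, and Mcm7, with 2 start sites, held 3 in one window and 1 in the other. Cdt1 held 2 and Cdc6 held 1, and the windows of Mcm2 and Pcna held none.
Mcm5, chr8:75109259-75109558, plus strand: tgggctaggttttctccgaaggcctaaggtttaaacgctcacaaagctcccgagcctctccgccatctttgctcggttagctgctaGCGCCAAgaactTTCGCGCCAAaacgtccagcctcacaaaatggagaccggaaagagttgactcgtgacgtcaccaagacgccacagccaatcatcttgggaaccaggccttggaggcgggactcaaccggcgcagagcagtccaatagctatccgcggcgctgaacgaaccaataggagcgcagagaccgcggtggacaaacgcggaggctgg
Mcm6, chr1:128359656-128359955, minus strand: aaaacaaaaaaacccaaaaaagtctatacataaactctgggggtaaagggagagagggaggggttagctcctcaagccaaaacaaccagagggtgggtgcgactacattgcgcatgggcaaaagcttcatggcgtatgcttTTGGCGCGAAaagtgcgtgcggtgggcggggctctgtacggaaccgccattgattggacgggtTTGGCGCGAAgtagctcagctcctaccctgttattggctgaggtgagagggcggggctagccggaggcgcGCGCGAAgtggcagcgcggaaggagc
Mcm3, chr1:20820263-20820562, minus strand: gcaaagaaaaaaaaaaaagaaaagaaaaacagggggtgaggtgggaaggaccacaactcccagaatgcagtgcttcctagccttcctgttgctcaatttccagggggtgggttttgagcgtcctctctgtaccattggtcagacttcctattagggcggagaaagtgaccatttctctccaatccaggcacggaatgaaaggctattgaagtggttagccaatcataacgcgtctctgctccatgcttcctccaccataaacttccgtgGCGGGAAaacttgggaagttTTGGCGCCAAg
Mcm2, chr6:88898731-88899030, minus strand: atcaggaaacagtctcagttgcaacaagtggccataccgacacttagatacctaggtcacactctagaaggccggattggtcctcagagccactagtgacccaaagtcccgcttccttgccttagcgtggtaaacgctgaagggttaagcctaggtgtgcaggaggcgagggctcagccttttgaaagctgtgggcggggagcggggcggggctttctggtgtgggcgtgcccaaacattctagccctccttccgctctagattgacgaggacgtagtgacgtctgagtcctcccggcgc
The clock's E-box letters CACGTG, present for 8.09% of all genes, and the D-box letters TTATGTAA or TTACGTAA, present for 1.23%, occurred in no window of the 8 members. The letters CCAAT, present for 41.1% of all genes, occurred for 6 of the 8. A match is a description of the letters, not evidence of a site.

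Transcripts of the licensing and S phase genes were more abundant in cells with a brighter Venus signal. In the edgeR quasi-likelihood test of a linear trend over the 4 gates, with the plate as a block and Benjamini-Hochberg adjustment over 18430 genes, 9 of the 10 members rose, none fell, and Cdc6 missed the threshold of 0.05. Over all genes the same test called 6.78% higher and 8.64% lower. The median member changed by 0.29 on the log2 scale per gate step, against 0.00 for the median of all genes tested. All 10 slopes were positive on each plate taken alone, with a median of 0.40 on plate 1 and 0.18 on plate 2, and the difference between plates was not tested. Other measures moved along the gates too. The median number of genes detected per cell went from 10933 in gate 1 to 11300 in gate 4 on plate 1 and from 10867 to 11314.5 on plate 2. Of the 8 fibroblast markers, 5 fell and 2 rose in the same edgeR test, with Thy1 at -0.45 and Fn1 at -0.26 per gate, and Lyz2 rose by 0.22 (edgeR adjusted p = 0.028). Their part in the member trends was not tested.

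Mcm5 had the steepest slope of the helicase subunits. From gate 1 to gate 4 it measured 5.12, 6.48, 13.1 and 21.2 CPM on plate 1. On plate 2 it measured 7.59, 11, 8.92 and 14.3 CPM, so that gates 2 and 3 were out of order while gate 4 stood above gate 1 on both plates. The trend was 0.48 ± 0.11 per gate step on the log2 scale (SE, edgeR adjusted p = 0.024, n = 8 blocks), with 0.71 on plate 1 and 0.24 on plate 2.

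Mcm3, another subunit of the ring, measured 15, 21, 25.7 and 42.5 CPM on plate 1. On plate 2 it measured 18.3, 27.1, 26.1 and 35.6 CPM. In both sets gate 4 was the highest and gate 1 the lowest, and the trend was 0.38 ± 0.05 (log2 per gate, SE, edgeR adjusted p = 0.0031).

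Mcm6 measured 24.4, 30.2, 40.3 and 58.8 CPM on plate 1 and 30.2, 42.8, 39.7 and 47.6 CPM on plate 2. The extremes again fell in the outer gates, with a trend of 0.31 ± 0.05 (edgeR adjusted p = 0.011). Mcm4 measured 32.9, 40.1, 48.7 and 61.4 CPM on plate 1 and 34.3, 48.0, 49.8 and 56.5 CPM on plate 2. It was the only subunit whose 4 gates were in order on both plates, with a trend of 0.26 ± 0.03 (edgeR adjusted p = 0.0024).

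Mcm7 and Mcm2 had the flattest slopes of the ring. Mcm7 ran from 18.4 to 35.5 CPM between the outer gates of plate 1 and from 22.7 to 31.3 CPM on plate 2, with its lowest plate 2 value, 22.1 CPM, in gate 3 (trend 0.20 ± 0.04, edgeR adjusted p = 0.022). Mcm2 ran from 28.3 to 46.1 CPM and from 30.5 to 43.1 CPM (trend 0.18 ± 0.02, edgeR adjusted p = 0.0042). Exons of Mcm7 overlap those of Cops6 and Ap4m1 on the opposite strand in GENCODE vM21, and since the use of strand in counting is not given in the sources used here, shared reads cannot be assigned.

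Of the loaders, Cdt1, which brings the helicase to the origin, rose. It measured 6.98, 7.65, 10.4 and 15.4 CPM on plate 1 and 10.6, 9.97, 14.8 and 12.8 CPM on plate 2, with a trend of 0.27 ± 0.06 (edgeR adjusted p = 0.029). Cdc6, the ATPase that works with it, measured 1.92, 2.08, 3.69 and 6.19 CPM on plate 1 and 2.40, 5.14, 4.25 and 4.27 CPM on plate 2. Its slope of 0.41 ± 0.12 was the second steepest of the 10 and did not pass (edgeR adjusted p = 0.054).

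The clamp gene Pcna measured 15.4, 17.8, 21.3 and 24.9 CPM on plate 1 and 15.3, 21.7, 22.0 and 22.8 CPM on plate 2, in order in both (trend 0.20 ± 0.04, edgeR adjusted p = 0.010). A processed pseudogene in the table, Pcna-ps2, held 3842 counts in all cells against 12973 for Pcna, so a part of the reads of either may belong to the other. Ccne2, a cyclin E gene, measured 2.12, 2.80, 4.48 and 5.45 CPM on plate 1 and 2.99, 4.30, 5.34 and 4.10 CPM on plate 2 (trend 0.33 ± 0.08, edgeR adjusted p = 0.033). Exons of Ccne2 overlap Ints8 on the opposite strand.

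**Figure D1:**
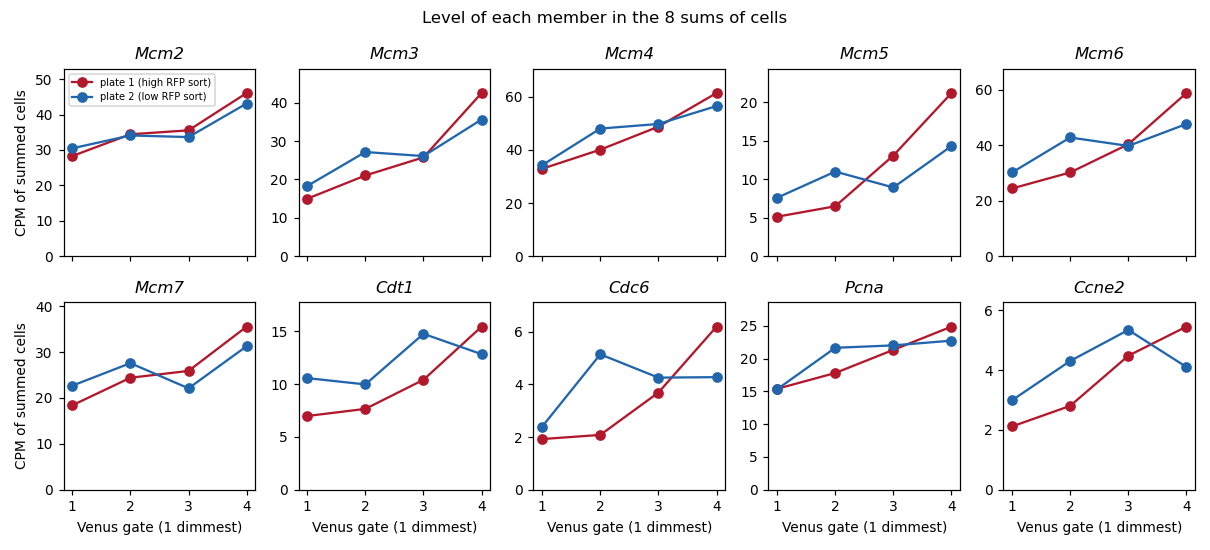
CPM of each of the 10 genes (y axes, from 0) in the 4 Venus gates (x axes) of plate 1 in red and plate 2 in blue, 1 point for each sum of cells. Gate 4 lies above gate 1 in all 20 pairs, and on plate 2 the middle gates of several genes are out of order.

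The calls rested on the outer gates. Without gate 1, or without gate 4, 2 of the 10 members passed, although all 10 slopes stayed positive and the median slope was 0.25 and 0.28. Over all genes the calls fell from 2843 to 1139 without gate 1 and to 358 without gate 4.

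Other genes of replication moved in the same direction where they passed the test. Over all genes the test called 6.78% higher and 8.64% lower. Of a list of 65 further replication genes, 10 rose, none fell and 55 did not pass, with a median slope of 0.09. The largest were Tk1, thymidine kinase (0.46 ± 0.12, edgeR adjusted p = 0.040), Mcm10, a helicase activation factor (0.41 ± 0.10, adjusted p = 0.031), and Gins2, a subunit of the active helicase (0.41 ± 0.04, adjusted p = 0.0015). Chaf1b, of the histone chaperone CAF-1 (0.39), the DNA ligase Lig1 (0.30) and Uhrf1, which guides maintenance methylation (0.28), also rose, and Ccne1, E2f7, Prim1 and Pold2 passed with smaller slopes. Among the 6 origin recognition genes none passed in DESeq2 or in edgeR, which called 15.4% of all genes in either direction. With only 6 genes, none passing is near that share. Of these 6, 1 had an unadjusted edgeR p under 0.05, beside 5494 of the 18430 genes tested. The median slope of the 6 was -0.01. The difference between the members and these lists was not tested.

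The change in the mean was then divided into the share of cells with at least 1 read and the level in those cells, after every cell was thinned to 400000 counts. This left 753 cells, and 9 shallower cells were dropped, 8 of them in gate 2 of plate 2. The members ranged from genes detected in nearly every cell to genes detected in few. Pcna was detected in 94.7% to 97.9% of the cells of a block and Mcm4 in 87.4% to 97.9%, whereas Mcm5 was detected in 17.7% to 38.3% and Cdc6 in 6.32% to 15.6%. Between these, the overall shares were 90.8% for Mcm2, 80.9% for Mcm7, 77.8% for Mcm6, 68.3% for Mcm3, 58.8% for Cdt1 and 40.2% for Ccne2.

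In the limma test of the log2 odds of these shares, 0 of 10 members passed, and 2 of them, Mcm3 and Mcm5, had an unadjusted p under 0.05. The background was 0.0122% in either direction, 2 genes of 16405, with 0.00610% higher and 0.00610% lower. Of the 16405 genes, 2315 had an unadjusted p under 0.05. Dbp, a clock gene whose log2 odds climbed by 1.49 ± 0.14 per gate, had a limma adjusted p of 0.074 there. In the level per expressing cell, 3 members passed. Mcm2 (0.18 ± 0.03), Mcm4 (0.23 ± 0.03) and Mcm6 (0.27 ± 0.05) rose in the limma test, with adjusted p of 0.034, 0.031 and 0.047, and all 10 members had positive slopes with an unadjusted p under 0.05. In that test 5.73% of 13902 genes were called, 2.81% upward and 2.93% downward. Of these 13902 genes, 3857 had an unadjusted p under 0.05 in either direction. With a minimum of 5 reads for an expressing cell 8 members could be tested, without Cdc6 and Ccne2, and 7 passed, where 14.0% of 10242 genes were called.

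Between gate 1 and gate 4 the level accounted for most of the log2 change in the mean for 7 genes, from 72.7% for Cdt1 to 96.2% for Pcna. Pcna was detected in at least 94.7% of the cells of every block, and Mcm2 and Mcm4 in at least 87.4%. Their shares had little room to rise, so a large part for the level was set by the detection rate there. For Mcm5, Cdc6 and Ccne2 the share and the level contributed about equally, with 50.4%, 49.8% and 50.2% from the level. This division depended on the minimum of 1 read. At a minimum of 5 reads the log2 ratio of the share alone was 1.10 for Mcm5, 1.40 for Cdc6 and 0.61 for Ccne2, beside 1.52, 1.32 and 0.93 for the mean. The plates differed for these 3. At 5 reads the log2 ratio of the share was 1.69 on plate 1 and 0.51 on plate 2 for Mcm5. It was 2.79 and 0.015 for Cdc6, and 1.79 and -0.57 for Ccne2. Cdc6 reached 5 reads in 1 cell of gate 1 and 7 cells of gate 4 on plate 1. On plate 2 it did so in 4 cells of each of these gates. The level of Mcm5 in expressing cells went from 8.74 to 23.4 reads on plate 1 and from 13.4 to 14.4 reads on plate 2, while its share of expressing cells went from 20.0% to 34.4% on plate 1 and from 23.2% to 38.3% on plate 2.

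**Figure D2:**
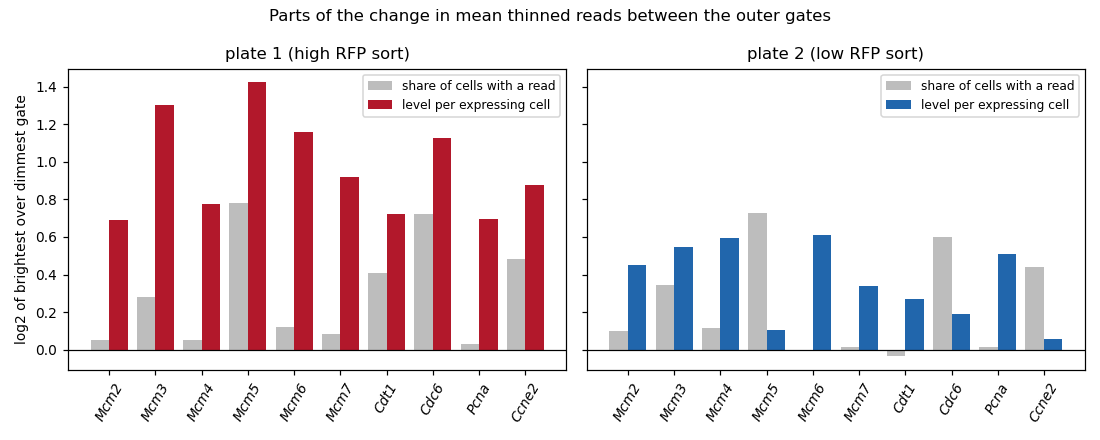
Log2 ratio of gate 4 over gate 1 (y axis) for the share of cells with a read, in grey, and for the mean level of those cells, in colour, for each gene on plate 1 (left) and plate 2 (right). The 2 bars of a gene add up to the change of its mean; on plate 2 the grey bars of Mcm5, Cdc6 and Ccne2 exceed the coloured ones.

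The mean per expressing cell did not describe the typical cell. Summed over the 10 genes, a thinned cell held a median of 47 reads, with a range from 7 to 1470. The 76 cells at or above the 90th percentile, 141.8 reads, held 49.7% of all reads of these genes. This division was chosen after the data were seen, and 35 cells lay within 20% of it, so the high cells are a range and not a cell type. The high cells were picked by the summed reads of these same 10 genes, so higher means in them follow from that choice. Every high cell had reads of Mcm2, Mcm3, Mcm4 and Mcm7, as did 89.8%, 64.7%, 92.8% and 78.7% of the other cells. The contrast was greatest for Cdc6, with a mean of 13.5 reads in high cells and 0.10 in the others, and for Mcm5, with 33.3 and 0.960. Pcna, with 27.9 and 5.72 reads, and Ccne2, with 5.72 and 1.12 reads, separated them least.

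High cells made up a larger share of gate 4 than of gate 1 on both plates, with no test. On plate 1 they made up 5.26%, 5.21%, 9.47% and 16.7% of the cells from gate 1 to gate 4. On plate 2 they made up 8.42%, 9.30%, 12.5% and 13.8%. The exact binomial intervals of the outer gates overlapped on both plates, from 1.73% to 11.9% against 9.84% to 25.7% on plate 1, and these intervals cover counting error only. At the 95th percentile in place of the 90th the shares ran from 1.05% to 10.4% on plate 1 and from 3.16% to 6.38% on plate 2.

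The mean of all cells climbed by 0.35 per gate step on the log2 scale on plate 1 and by 0.19 on plate 2, whereas the mean of the cells below the division changed by 0.04 and 0.05. The slope of the median cell was 0.09 on plate 1 and 0.06 on plate 2, and that of the 25th percentile was 0.01 and -0.02. These slopes are descriptions without a test, and removing the highest cells lowers such a slope by construction.

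**Figure D3:**
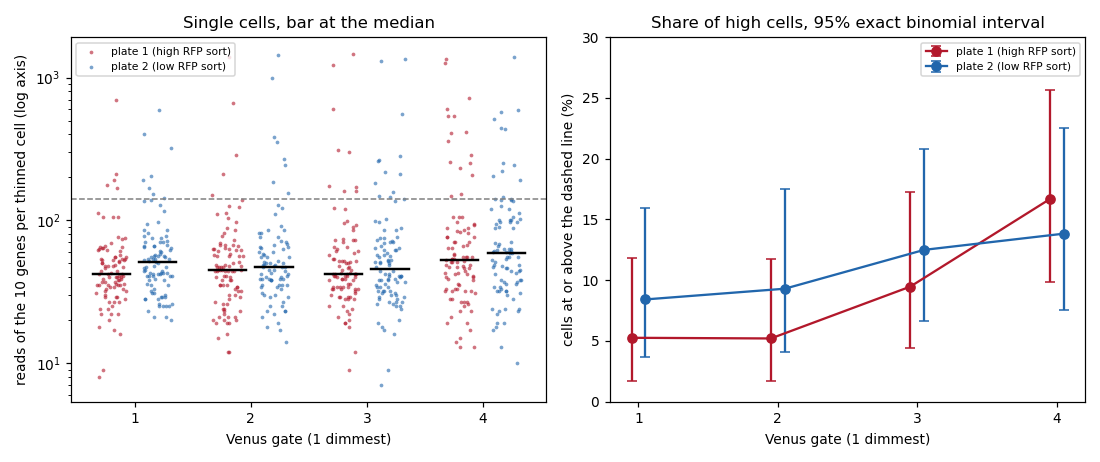
Left, reads of the 10 genes per thinned cell (log axis) in each Venus gate, plate 1 in red and plate 2 in blue, with black bars at the medians and a dashed line at 141.8 reads. Right, the share of cells at or above that line with 95% exact binomial intervals, which reaches 16.7% in gate 4 of plate 1 and 13.8% in gate 4 of plate 2.

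Cells high in the licensing genes were often high in mitotic genes. Of the 76 high cells, 55 were also among the 76 cells with the most reads of a list of 20 G2/M genes. The summed level of that list went from 343 CPM in gate 1 to 758 CPM in gate 4 on plate 1, but measured 637, 816, 379 and 821 CPM along plate 2. On plate 2 the mitotic list was therefore lowest in gate 3, while the members summed to 178, 236, 229 and 283 CPM. In the edgeR test 5 of the 20 G2/M genes rose, beside 6.78% of all genes. The median slope of the 20 was 0.37 on plate 1 and -0.04 on plate 2. When the cells with the most G2/M reads were left out, an alternative chosen after the data were seen, 4 members passed (Mcm2, Mcm3, Mcm4 and Mcm5) and the median slope was 0.24. Fewer cells entered that fit, and the effect of their number on the calls was not tested. The slopes moved in both directions. Those of Mcm5 (0.76 ± 0.16) and Cdc6 (1.02 ± 0.40, edgeR adjusted p = 0.13) were steeper than with all cells, and those of Mcm7 (0.09 ± 0.05, adjusted p = 0.28) and Pcna (0.10 ± 0.03, adjusted p = 0.076) were flatter, while Cdt1 kept a slope of 0.28 and no longer passed (adjusted p = 0.058). Among the cells that remained, high cells numbered 0, 1, 4 and 6 along the gates of plate 1 and 1, 1, 5 and 3 along plate 2. The part of mitotic cells in the member trends was not tested further.

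Inside the gates the members varied together. Across cells of the same plate and gate, all 45 pairs had a positive median Spearman correlation of log2(CPM + 1) over the 8 blocks of 94 to 96 cells, with a median of 0.31. The strongest pair was Mcm5 with Mcm6, at 0.47, and 4 of the 5 highest pairs joined Mcm5 to another helicase subunit. Ccne2 was the least tied, with 0.06 for its pair with Cdt1 and 0.08 with Mcm4. Cells of a block share depth and gene detection, which can carry a correlation of sparse counts. A member score, the mean of the 10 genes scaled within the block, had a median correlation of 0.02 with the total counts of the cell but of 0.31 with the number of genes detected and of -0.23 with the mitochondrial share.

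The 10 genes most like the member score by mean correlation over the 8 blocks, among 9045 genes whose mean log2 CPM reached 3, were Nuf2, Stip1, Bub1, Hmmr, Ran, Tk1, Ncaph2, Troap, Hsp90aa1 and Pbk. Nuf2, a kinetochore protein, led with 0.52, and its own trend over the gates was 0.15 ± 0.11 (edgeR adjusted p = 0.41). The chaperone genes Stip1 and Hsp90aa1 stood at 0.51 and 0.48. Of the 50 most alike genes, 10 belonged to the G2/M list and 3 to the replication list. The 9045 genes ranked held 20 genes of the G2/M list and 46 of the replication list. The 5 most opposite were Itm2b, Npc2, Rsrp1, Mmp2, a matrix metalloproteinase, and Mxd4, an antagonist of Myc, from -0.44 to -0.40.

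Clock genes and replication genes both moved with Venus between gates, but inside the gates they were weakly related. In the edgeR test 13 of 16 clock genes rose over the gates and 2, Arntl and Nfil3, fell; the gates were drawn on a clock reporter, so this is not an independent result. Dbp, a clock output activator, rose by 0.74 ± 0.02 per gate (edgeR adjusted p = 6.33e-06). Within gates, however, Dbp had the most negative correlation with the member score, a median of -0.21 and a negative value in 8 of 8 blocks, from -0.34 to -0.12. Per3 followed (median -0.18, negative in 7 of 8), and Bhlhe40 (median -0.17) and Tef (median -0.10) were negative in 8 of 8. Cry1, a clock repressor, had the highest, 0.18, positive in 7 of 8 blocks. Nr1d1 itself stood at -0.015, positive in 4 and negative in 4. Over all 18430 genes the median was 0.01 and the central 95% ran from -0.20 to 0.30, and over the 9053 genes with a mean log2 CPM of 3 or more it ran from -0.24 to 0.34. Dbp, which is among the latter, lay within their range, as did Cry1.

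Gene by gene, Dbp was negative in at least 7 of 8 blocks with each of the 10 members, with medians from -0.22 for Mcm2 to -0.08 for Mcm4. Over a whole plate, the correlation of Dbp with the score was -0.06 in 383 cells of plate 1. It was -0.10 in 379 cells of plate 2. Over the same cells of plates 1 and 2, that of Nr1d1 was 0.13 and 0.10 and that of Cry1 was 0.22 and 0.14. In the cells below their block's median for the G2/M list the median for Dbp was -0.13 and that for Cry1 was 0.02. Bhlhe40, Per3 and Tef moved towards or past 0 in those cells, to -0.08, -0.03 and 0.03.

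**Figure D4:**
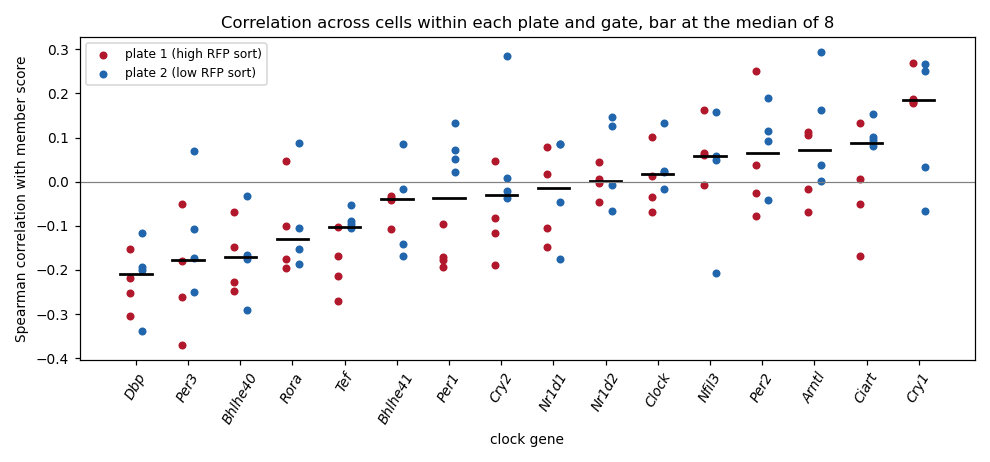
Spearman correlation across cells (y axis) between the member score and each of 16 clock genes (x axis), 1 point for each plate and gate, red for plate 1 and blue for plate 2, with a bar at the median of the 8. Dbp, Bhlhe40 and Tef lie below 0 in all 8 blocks, Cry1 above 0 in 7.

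The same cells and genes were also described in reads, by the division into high and other cells. This is not independent of the correlations within gates. In gate 4, high cells held a mean of 19.9 Dbp reads on plate 1 and 18.8 on plate 2, and the other cells held 31.0 and 34.3. In gate 1 the means were 6 and 1.88 for high cells and 7.19 and 8.20 for the others, from only 5 and 8 high cells. Dbp was lower in the high cells in 8 of 8 blocks, at 0.509 of the level of the other cells when blocks were weighted equally. Tef (0.681) and Bhlhe40 (0.658) were lower in 8 of 8 as well, and Per3 (0.649) in 7 of 8. Of 18420 genes outside the members, 9.55% were lower in all 8 blocks and 8.56% higher in all 8. Cry1 was higher in 7 of 8, with the exception of gate 2 of plate 2, and its ratio was 1.70. Ciart, a repressor with few reads, had a ratio of 2.04 but was higher in 4 blocks and lower in 4. Nr1d1 was lower in 5 and higher in 3, with a ratio of 1.00.

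**Figure D5:**
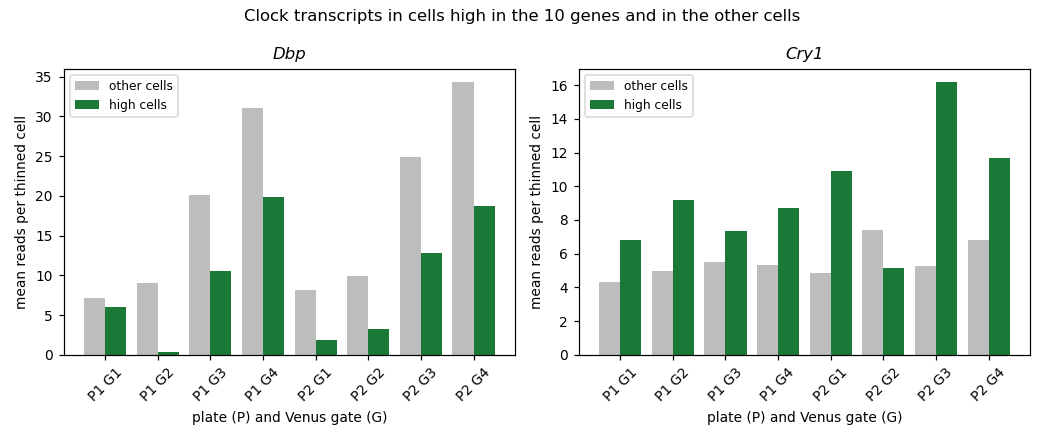
Mean reads per thinned cell (y axes, from 0) of Dbp (left) and Cry1 (right) in the cells high in the 10 genes, green, and in the other cells, grey, for plates P1 and P2 and gates G1 to G4. The green bar of Dbp is below the grey one in every block, by the least in gate 1 of plate 1, and both rise towards gate 4.

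Recorded fluorescence and size inside a gate were weakly related to the members. The median correlation of the member score was 0.09 with Venus fluorescence, 0.10 with iRFP fluorescence and 0.13 with forward scatter, a measure of cell size, each positive in 6 of 8 blocks.

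The high and low H2B-iRFP sorts of the sorting record have 1 plate each and hence no test; sort and plate cannot be told apart, and the labels place both bins on each plate. The ratio of plate 1 over plate 2 was below 1 for 9 of 10 members, with a median log2 ratio of -0.10 against -0.06 for all genes tested. It was lowest for Cdt1, at 9.92 CPM (exact Poisson interval 9.57 to 10.3) on plate 1 and 12.4 CPM (11.98 to 12.8) on plate 2, a ratio of 0.802 (exact binomial interval 0.765 to 0.841). Mcm5 was the exception, with 11.3 and 10.7 CPM and a ratio of 1.06 (1.01 to 1.11). These intervals cover counting error only. With a negative median over all genes, most genes tested also had a ratio below 1. The log2 ratio was below -0.1 for 6 of the 10 members, beside 40.1% of all genes tested.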

How the data were processed

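Raw read counts per gene and cell, with a different total in each cell, were deposited by the authors. The submitters' processing notes name STAR 2.7.11a, SAMtools, bedtools, HTSeq and the build GRCm39 (mm39). The use of strand, the treatment of multiply mapped reads and any molecular identifiers are not given in the sources used here. Fluorescence and scatter were deposited as intensity values of unstated scale beside each well's gate. All columns of the count table matched a sample.

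Cells with at least 1000 genes, a total of at least 0.1 of the plate median and a mitochondrial share of at most 25% entered. Per the labels, a well received 1 cell; doublets were not called. Gates were ordered by median Venus intensity. Counts were summed per plate and gate and tested with edgeR 4.0.16 (R 4.3.3, TMM, filterByExpr, quasi-likelihood F-test, gates plus plate, 3 residual degrees of freedom). The contrast weighted the outer gates by 3 and the inner gates by 1, divided by 10. Printed CPM values use TMM library sizes, except for marker and list sums and plate totals, and slopes for 1 plate use log2 CPM with a prior count of 2. Shares (log2 odds, 0.5 cells added) and levels (log2 mean, at least 5 expressing cells in every block) used cells thinned at random to 400000 counts and limma 3.58.1. Adjusted p-values are Benjamini-Hochberg over all genes tested. Correlations are Spearman on log2(CPM + 1) within a plate and gate and carry no p. The tests were also run on simulated data, with a common spread for all summed counts and independent cells for the shares. Those data did not copy the crowding of member reads into few cells. Intervals are exact at 95%.

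The members and all lists were chosen with earlier results of these data known. Named genes were the 10 members, the 6 largest calls of the replication list, the clock genes that set the range of the within-gate correlations, and the 10 most like and 5 most opposite genes; further genes were named after their values were seen. GENCODE vM21 served for gene overlaps only. Alternatives were other scaling, DESeq2 1.42.0, filters, contrasts, thinning depths, and the omission of a plate or a gate.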

Additional observations from a re-analysis of the deposited data

How the results depend on the processing

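All 10 member slopes stayed positive under every alternative of the summed-count test that was run, and the number of members called ranged from 7 to 10 under DESeq2 (10), library totals without TMM (9), no low-count filter (10), the stricter cell filter (9), thinning (10), a linear gate score (9), the outer gates alone (7), no replicate block for the plate (7), and without gate 2 (9) or gate 3 (7). It was 5 with limma on the mean CPM over cells, 2 without gate 1 and 2 without gate 4. It was 4 without the cells highest in G2/M genes. Without a gate fewer blocks entered, and without those cells fewer cells did. The genes called numbered 1683 with no replicate block, 1858 with the linear score, 1139 without gate 1 and 358 without gate 4, against 2843; 44.0% of calls were upward, and 57.8% with library totals without TMM. A plate alone gives no test and so no count of calls; leaving out either plate, the median member slope ranged from 0.18 to 0.40, that of the share from 0.16 to 0.23 and that of the level from 0.14 to 0.30.

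For the share, no member passed in any alternative. The genes called were 5 at a minimum of 5 reads, 4 at 200000 counts, 1 unthinned and 0 without any 1 gate, and the median member slope was 0.14 without gate 1 and 0.061 without gate 4. Slopes changed sign for Mcm6 (-0.010 at 5 reads, -0.030 at 200000 counts, -0.21 without gate 4), Mcm7 (-0.088 at 5 reads, -0.095 at 200000 counts), Pcna (-0.088 unthinned, -0.014 without gate 4) and Mcm3 (-0.15 without gate 4), none of them called. With plate 1 left out, where no test could be run, the slopes of Mcm7 (-0.019) and Cdt1 (-0.012) were negative too. For the level, 7 of 8 members tested and 1439 genes were called at 5 reads; without a gate 0 members were called, and 3, 7, 13 and 2 genes without gates 1 to 4. The causes of these changes were not tested.

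The within-gate correlation with the member score ranged over the plates left out from -0.23 to -0.20 for Dbp and from 0.14 to 0.18 for Cry1, and was -0.13 and 0.019 in cells low in G2/M genes. The median pair correlation ranged from 0.25 to 0.32. At full depth the share of cells with a read was 49.7% for Ccne2, against 40.2% after thinning, 28.6% against 26.2% for Mcm5 and 10.4% against 9.56% for Cdc6.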
